A study of Rattus norvegicus with 59 samples.

Results

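Chromosome 2 of the rat was described here through 2 repressive histone marks, dimethylation of lysine 9 and trimethylation of lysine 27 of histone H3 (H3K9me2 and H3K27me3). All bins that the deposited chromatin files place on chromosome 2 were taken, which gave 482 of 6171 H3K9me2 bins and 873 of 9703 H3K27me3 bins, or 1355 of 15874 bins in all. They covered 257 of 2532 Mb for H3K9me2 and 253 of 2510 Mb for H3K27me3, so the chromosome held 10.1% of the covered length of each mark. The bins lay on 20 chromosomes without X. Chromatin immunoprecipitation and sequencing had been done on left ventricular nuclei from Sprague Dawley rats, all male. The nuclei had been sorted for PCM1, a centriolar satellite protein that labels cardiomyocyte nuclei.

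The banded rats weighed about 170 g and carried a tightened suture around the ascending aorta for 6 weeks, after which animals with thickened and non-failing hearts were retained. The sham rats, also of about 170 g, had the same operation with the suture left loose. The trained rats, of about 280 g, ran intervals on an inclined treadmill for 6 weeks. The control rats, of about 280 g, were not put through that training. Each group had 4 samples per mark, and the labels do not say whether 1 sample was 1 animal. The banded group was selected on its heart phenotype, and both experiments differed in weight, surgery and anaesthesia. Whether the sorted nuclei were cardiomyocyte nuclei could not be checked from values of repressive marks.

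H3K9me2 is deposited by the methyltransferases G9a and GLP and covers broad domains, often at the nuclear periphery. H3K27me3 is the product of Polycomb repressive complex 2, which is drawn to CpG-rich promoters of silent developmental genes and also spreads thinly over long intergenic stretches. In heart muscle cells both marks are associated with genes of other lineages and of the fetal programme being held silent.

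Chromosome 2 is labelled gene-poor, and the RefSeq annotation of assembly GRCr8 bore this out. It listed 1398 protein-coding genes on chromosome 2, or 5.55 per Mb, the lowest value of the 20 chromosomes. The other 19 ranged from 5.89 to 16.6 per Mb with a median of 7.69, and chromosomes 10 and 12 were at the top. Of the RefSeq promoters on chromosome 2, taken from 250 bases before to 50 bases after each gene's start, 28.3% were CpG-rich, against 31.8% of the promoters on all other chromosomes together. CpG-rich here means over 50% G and C with over 0.6 of the CpG count that base composition would give. Per length, chromosome 2 had 2.49 such promoters per Mb, against 2.44 to 8.10 on the others, and chromosomes 15 and 16 alone had fewer. No source used here names the build of the chromatin files, so single bins were not placed on genes and no sequence of a bin is shown. The bins are not on GRCr8. They end at 258195001 on chromosome 2 and at 59195001 on chromosome 19, and the RefSeq counts and densities imply a shorter chromosome 2 and a longer chromosome 19. Gene and promoter densities are thus of another assembly than the bins.

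The authors deposited log2 RPM (reads scaled to the library's total) for each bin in 1 column per group. How the 4 samples of a group were joined is not stated, no spread between samples can be given, and none of the differences below has a replicate check or a test. When the 4 columns of a mark were each put in order of size, they nearly coincided: the median range over equal ranks was 0.00065 log2 units for H3K9me2 and 0.00048 for H3K27me3. In the same bin, the median range was 0.34 and 0.27. The columns therefore shared 1 distribution and nearly the same total. A genome-wide gain or loss of a mark could not show in such values, and a higher chromosome must be offset by lower ones. The share of nuclei with a mark and the amount of the mark per nucleus cannot be told apart.

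Bins on chromosome 2 were long. Bins came from circular binary segmentation, which joins neighbouring stretches of like signal, per the file names. For H3K9me2, chromosome 2 had 1.88 bins per Mb, the fewest of the 20 chromosomes (1.93 to 3.70 on the others). Bins of 1 Mb or more took up 59.1% of its covered length, the highest share of the 20, against 44.2% over all other chromosomes together. The longest H3K9me2 bin of the series was on chromosome 2, from 62435001 to 77175001 in the files' coordinates, a stretch of 14.7 Mb. For H3K27me3 the chromosome had 3.44 bins per Mb, again the fewest, with the next value of 3.45 on chromosome 15. It had 44 H3K27me3 bins of 1 Mb or more, in number the most of any chromosome. They took up 25.6% of its covered length, and chromosome 15 had a higher share, 30.6%. The median H3K27me3 bin was 180 kb on chromosome 2 and 160 kb elsewhere. The median H3K9me2 bin differed less, with 200 kb and 190 kb. No source used here says from which samples the segmentation was made.

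H3K27me3 was thinner on chromosome 2 than on any other chromosome. Its density, the summed RPM over the summed length, was 334 RPM per Mb in banded, 330 in sham, 322 in trained and 318 in control hearts. The other chromosomes together had 391, 391, 393 and 393 RPM per Mb in the same groups. Chromosome 2 was the lowest of the 20 chromosomes in all 4 groups, and chromosome 15 came next with 343, 343, 336 and 334 RPM per Mb. The ratio of chromosome 2 to the rest was 0.854 in banded and 0.843 in sham hearts, and 0.819 in trained and 0.810 in control hearts. The gap was thus wider in both groups of the exercise experiment than in both groups of the surgery experiment. With 10.1% of the covered length, the chromosome held 8.75% of the H3K27me3 RPM in banded, 8.65% in sham, 8.43% in trained and 8.34% in control hearts.

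H3K9me2 was only slightly thinner on chromosome 2. Its density was 372 RPM per Mb in banded, 369 in sham, 367 in trained and 368 in control hearts. All other chromosomes together had 383, 383, 384 and 383 RPM per Mb. The ratios were 0.971, 0.963, 0.958 and 0.960, and between 3 and 5 of the other 19 chromosomes were lower, depending on the group. Chromosome 2 was therefore near the low end for this mark but not at it. The spread of the log2 density over its bins was a little narrower than elsewhere for both marks, with an SD of 0.31 against 0.34 for H3K9me2 and 0.72 against 0.76 for H3K27me3. No test of chromosome 2 against the rest was made, since the columns of a mark are tied to each other and chromosomes are not replicates.

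**Figure D1:**
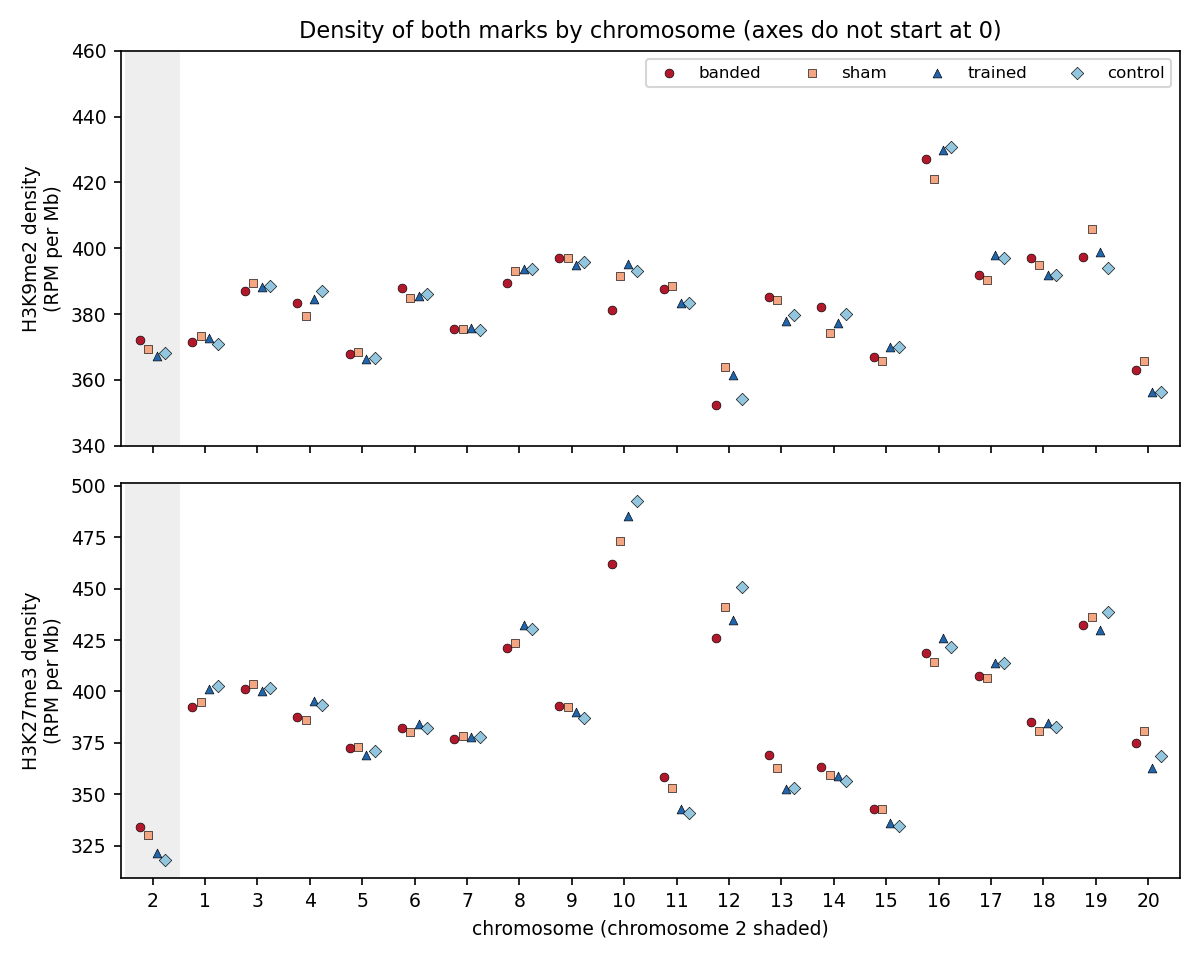
Density of H3K9me2 (top) and H3K27me3 (bottom) in RPM per Mb for each chromosome, with 1 point for each group column and chromosome 2 first on a shaded ground. For H3K27me3 the points of chromosome 2, from 318 to 334 RPM per Mb, are the lowest of all chromosomes in every group, while for H3K9me2 those of 3 to 5 other chromosomes lie below them.

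The 3 chromosomes nearest to chromosome 2 by their pair of density ranks were 15, 13 and 14. Their H3K27me3 densities, averaged over the 4 columns, were 339, 359 and 360 RPM per Mb, against 326 RPM per Mb on chromosome 2. Their H3K9me2 densities were 368, 382 and 378 RPM per Mb, against 369 RPM per Mb on chromosome 2. Chromosome 15 was thus the closest in both marks. Chromosome 12 had the lowest H3K9me2 density, 358 RPM per Mb, with 438 RPM per Mb of H3K27me3, so a low level of one mark did not go with a low level of the other there. Over the 20 chromosomes, H3K27me3 density went with protein-coding genes per Mb (Pearson 0.77, Spearman 0.70, and Pearson 0.75 without chromosome 2). H3K9me2 density did so hardly at all (Pearson -0.13). These are descriptions over chromosomes that share their libraries, with genes per Mb taken from another assembly than the bins.

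Little of chromosome 2 was densely covered by either mark. All covered length of a mark was cut into 10 classes of equal length by density. The densest class held 3.57% of chromosome 2 for H3K27me3, the smallest share of the 20 chromosomes, against 4.04% to 22.7% on the others. It held 2.64% of chromosome 2 for H3K9me2, also the smallest share, against 2.77% to 24.7%. The dense end was short for both marks. The 5 sparser classes held 58.8% of chromosome 2 for H3K27me3, the highest share of the 20, and 57.0% for H3K9me2. The sparsest class held 12.6% of it for H3K27me3 and 7.07% for H3K9me2. For H3K9me2 the length was instead gathered in class 3 from the sparse end, which held 16.7% of chromosome 2, again the highest share of the 20.

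**Figure D2:**
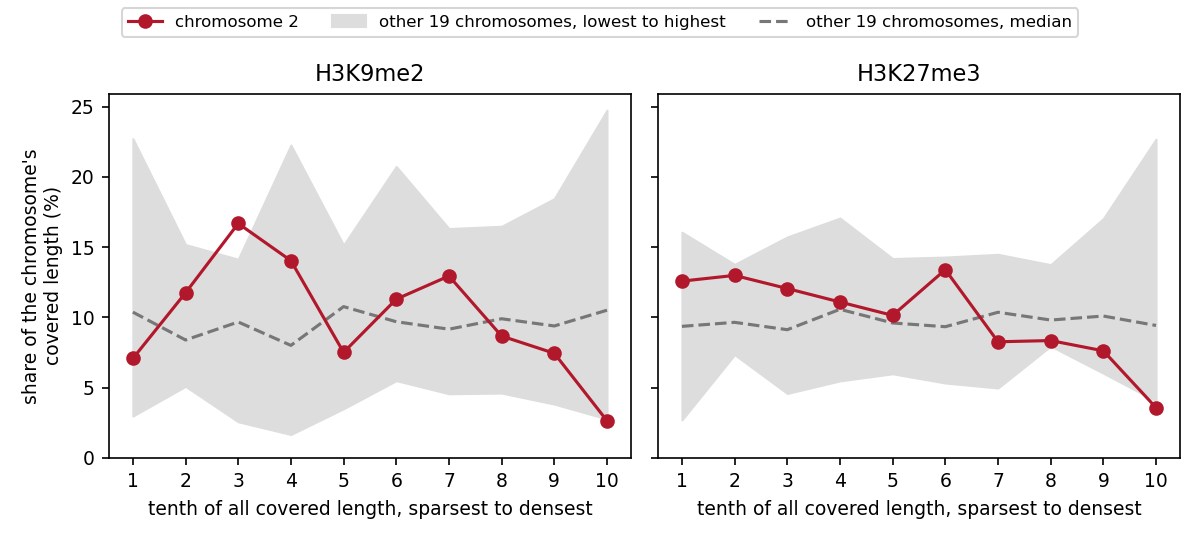
Share of covered length (%) that falls in each of 10 classes of equal length over all chromosomes, from the sparsest to the densest, for chromosome 2 (red) and for the other 19 chromosomes (grey band from lowest to highest, dashed median). In the densest class the red point is at 2.64% for H3K9me2 and 3.57% for H3K27me3, at the lower edge of the band.

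Both marks followed each other along the chromosome. In 257 windows of 1 Mb with a value for both marks, their densities had a Pearson correlation of 0.59 and a Spearman correlation of 0.58. The other chromosomes ranged from 0.23 to 0.75 (Pearson), and 7 of them were below chromosome 2. Both marks were below their own median in 96 windows and at or above it in 99. H3K9me2 alone was below it in 30 windows, and H3K27me3 alone in 32. Neighbouring windows often lie in the same bin, so these windows are not independent. Whether input was subtracted is not given, and neither mark was compared with input here.

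Long stretches of the chromosome were below the median in both marks. The longest run of windows below the H3K9me2 median (366 RPM per Mb) covered 19 windows from 2 to 21 Mb, with a mean of 322 RPM per Mb. In that run, H3K27me3 was below its own median (314 RPM per Mb) in 17 of the 18 windows that had a value, with a mean of 227 RPM per Mb. The longest run below the H3K27me3 median covered 16 windows from 61 to 77 Mb with a mean of 234 RPM per Mb. H3K9me2 was below its median in 15 of those 16 windows, but most of these windows repeat the value of 1 bin. This run overlapped that bin, the longest H3K9me2 bin, over which 22 H3K27me3 bins averaged 232 RPM per Mb. Its 1 value was 354 RPM per Mb, only slightly below the H3K9me2 median. H3K9me2 was sparser than that over 38.9% of the chromosome. A bin holds 1 value by construction, so whether H3K9me2 was even within this stretch cannot be told.

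High runs were shorter. The longest run above the H3K27me3 median covered 10 windows from 233 to 243 Mb with a mean of 401 RPM per Mb, and H3K9me2 was above its median in 9 of them. For H3K9me2 it covered 13 windows from 109 to 122 Mb with a mean of 392 RPM per Mb, and H3K27me3 was above its median in 10 of them. When the span was cut into 3 equal stretches, H3K27me3 had 318, 296 and 364 RPM per Mb from the first to the last, and H3K9me2 had 373, 359 and 376 RPM per Mb. The middle stretch was the lowest for both marks.

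**Figure D3:**
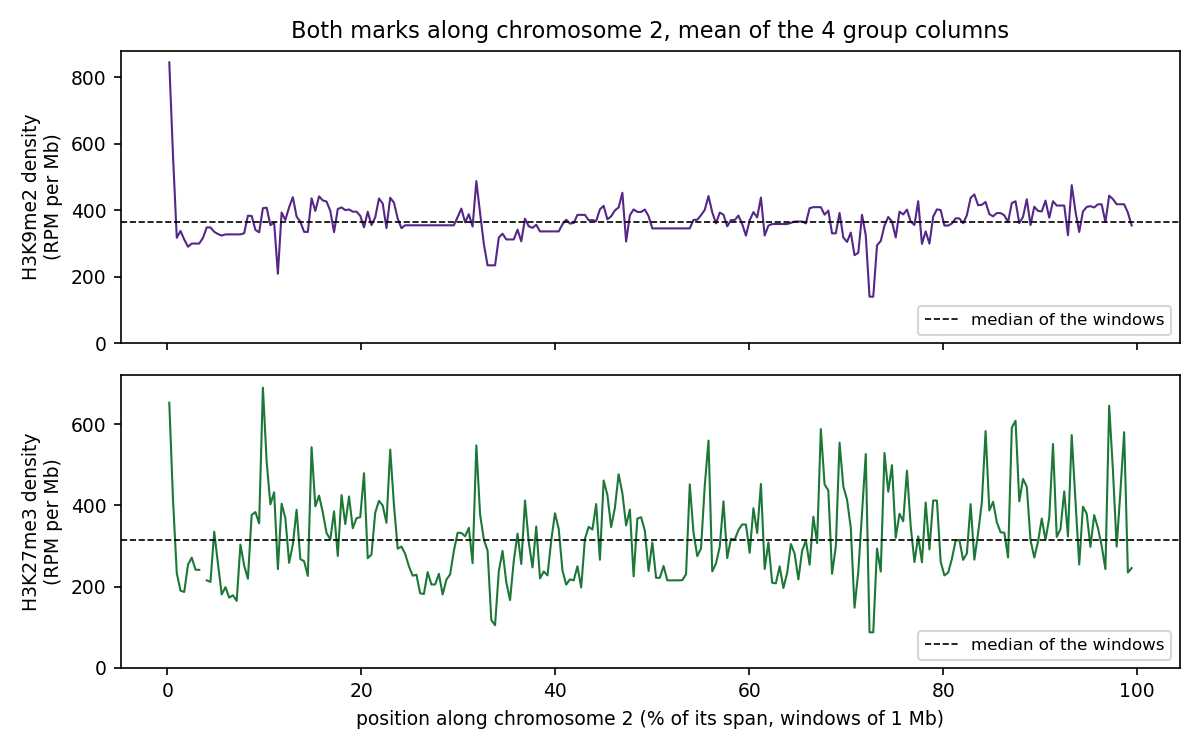
Density of H3K9me2 (top) and H3K27me3 (bottom) in RPM per Mb, mean of the 4 group columns, in windows of 1 Mb along chromosome 2, with the position as a percentage of the span and the dashed line at the median window. Windows ran from 140 to 844 RPM per Mb for H3K9me2 and from 87.5 to 690 RPM per Mb for H3K27me3, and the flat parts of the H3K9me2 line are single long bins.

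The densest H3K9me2 bin of the chromosome was its first one, from 1 to 1445001. It had 857 RPM per Mb in banded, 800 in sham, 865 in trained and 853 in control hearts, and was the second densest of all 6171 bins. H3K27me3 reached 653 RPM per Mb over the same stretch. The beginning of the chromosome was thus high for both marks in all groups. The next H3K9me2 bins by mean density were short. The bin from 98705001 to 98755001 had 464 RPM per Mb in banded, 388 in sham, 656 in trained and 826 in control hearts. The bin from 186505001 to 186545001 had 436, 349, 733 and 812 RPM per Mb in the same groups. Both were far higher in both exercise groups than in both surgery groups. They were also peaks of H3K27me3, which had 1276 and 1254 RPM per Mb there, above 99.9% and 99.8% of the chromosome's H3K27me3 length.

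The densest H3K27me3 bins were also short. The bin from 226555000 to 226605002 had 1362 RPM per Mb in banded, 1471 in sham, 1792 in trained and 1749 in control hearts. The bin from 12245000 to 12295002 had 1207, 1369, 1653 and 1569 RPM per Mb, and the bin from 120935000 to 120995002 had 1237, 1327, 1494 and 1476 RPM per Mb. All 3 were lowest in banded hearts and higher in both exercise groups than in both surgery groups. H3K9me2 had 427, 472 and 491 RPM per Mb over them, in the upper part of its range on the chromosome.

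A pair of stretches was thin in both marks. The sparsest bin of each mark on chromosome 2 lay in the same place, from 29295001 to 30085001 for H3K9me2 and from 29335000 to 30085002 for H3K27me3. H3K9me2 had 132 RPM per Mb there in banded, 140 in sham, 105 in trained and 105 in control hearts. H3K27me3 had 56.0, 65.1, 49.5 and 52.4 RPM per Mb, and only 4 of the 9703 bins of the series were sparser. The other stretch was longer, from 186685001 to 189285001 for H3K9me2 and from 186805000 to 189365002 for H3K27me3. It had 154, 138, 137 and 130 RPM per Mb of H3K9me2 and 108, 97.7, 68.6 and 76.0 RPM per Mb of H3K27me3 in banded, sham, trained and control hearts. In the remaining bins among the 3 sparsest of a mark, the other mark was also below its median window. The H3K9me2 bin from 178075001 to 178325001 had 127 RPM per Mb of H3K9me2 beside 196 RPM per Mb of H3K27me3, which had a value over 100 of its 250 kb and was sparser over 16.4% of the chromosome. The H3K27me3 bin from 18085000 to 18725002 had 101 RPM per Mb of H3K27me3 beside 327 RPM per Mb of H3K9me2, which was sparser over 18.8% of the chromosome.

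Banding was set against sham operation to follow both marks in pathological growth. H3K9me2 over chromosome 2 was a little higher in banded than in sham hearts, with a median difference of 0.042 log2 RPM over its bins and 0.011 over all other bins. The difference was above 0 in 62.9% of the bins of chromosome 2, the highest share of the 20 chromosomes, against 53.0% of all other bins. Its median was also the highest of the 20, and chromosome 14 followed with 0.036. Against that, the SD over the bins of chromosome 2 was 0.14 (0.16 elsewhere), more than 3 times the median. Weighted by bin length, the mean on chromosome 2 was 0.013, and 3 other chromosomes were higher. The bins of 1 Mb or more, which hold most of the length, had a median of 0.011 on chromosome 2 and 0.024 elsewhere.

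No H3K9me2 bin on chromosome 2 differed by more than 0.5 log2 units between banded and sham hearts, beside 0.146% of all bins (9 of 6171). At 0.25 log2 units the count was 39 of 482, or 8.09%, beside 10.5% of all bins. Of these, 18 (3.73%) were higher and 21 (4.36%) lower in banded hearts, beside 3.82% and 6.69% of all bins. The shift of the median therefore came without an excess of large gains, and with a smaller share of large losses than over all bins. The largest H3K9me2 gain was in the bin from 89835001 to 89885001, which had 24.9 RPM in banded and 17.9 in sham hearts, a difference of 0.47 log2 RPM. The next gains were 0.40 in the last bin of the chromosome, from 258145001 to 258195001, and 0.36 in the bin from 48035001 to 48095001. The last bin had only 11.7 RPM in banded and 8.8 RPM in sham hearts. The 3 gains were in bins of 50 to 60 kb. The largest losses were -0.40 from 180205001 to 180255001, -0.33 from 79275001 to 79465001 and -0.32 from 196405001 to 196685001. In the last of these H3K9me2 was at 94.8 RPM in banded and 119 RPM in sham hearts, beside 76.0 RPM in trained and 71.4 RPM in control hearts.

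H3K27me3 also leaned to higher values in banded hearts. The median difference was 0.022 log2 RPM on chromosome 2 and 0.0066 elsewhere, with 60.0% of the bins of chromosome 2 above 0, the highest share of the 20, against 52.2% of all other bins. By the median, 3 other chromosomes were higher, with chromosome 16 first at 0.031. The SD over bins was 0.11 on chromosome 2 and 0.12 elsewhere. By bin length, the gap was clearest in bins of 100 kb to under 1 Mb, with medians of 0.015 on chromosome 2 and -0.0030 elsewhere. Bins under 100 kb had 0.032 and 0.027. Bins of 1 Mb or more had 0.041 and 0.046, so chromosome 2 was the lower there. No H3K27me3 bin of chromosome 2 passed 0.5 log2 units, beside 0.0412% of all bins. At 0.25, 26 of 873 did, or 2.98%, beside 3.95% of all bins. Of these, 11 were higher and 15 lower in banded hearts, beside 1.46% and 2.48% of all bins.

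Gains of H3K27me3 with banding were led by the bin from 244205000 to 244225002, with 10.0 RPM in banded and 7.72 RPM in sham hearts, a difference of 0.38 log2 RPM in a bin of 20 kb. The sparse bin from 183165000 to 183545002 had 46.5 RPM in banded and 36.6 RPM in sham hearts, a difference of 0.35, and a bin of 20 kb from 172615000 to 172635002 gained 0.31. The 2 bins of 20 kb held about 10 RPM or less in banded and sham hearts, and the number of reads behind such a value is unknown. The largest losses were -0.43 from 170455000 to 170695002, -0.42 from 149855000 to 150005002 and -0.35 from 107545000 to 107695002. All 3 were thinly marked, with 168 to 177 RPM per Mb averaged over the columns. In each of them the sham value was the highest of the 4 groups, such as 51.8 RPM in sham hearts for the first, beside 38.5 RPM in banded, 34.4 in trained and 39.1 in control hearts.

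Training was set against the untrained control as the physiological form of growth. H3K9me2 on chromosome 2 was slightly lower in trained than in control hearts, with a median difference of -0.0067 log2 RPM and 0.0018 elsewhere. The difference was above 0 in 42.9% of the bins of chromosome 2, the lowest share of the 20 chromosomes, against 50.7% of all other bins. A difference of exactly 0 counted as not above 0. It occurred in 16 of the 482 bins of chromosome 2, against 46 of the 5689 other bins. The shift of the median was small beside the SD over bins, which was 0.089 on chromosome 2 and 0.099 elsewhere. The mean weighted by length was 0.0006 on chromosome 2, close to 0. No bin passed 0.5 log2 units, beside 0.0486% of all bins, and 8 of 482 passed 0.25, or 1.66%, beside 1.65% of all bins. Of these, 1 was higher and 7 lower in trained hearts, beside 0.616% and 1.04% of all bins.

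The bin with the largest H3K9me2 gain with banding, from 89835001 to 89885001, was also the one with the largest loss with training. It had 25.6 RPM in trained and 33.0 RPM in control hearts, a difference of -0.37 log2 RPM. The other large losses, -0.36 from 59245001 to 59335001 and -0.33 from 98705001 to 98755001, were likewise in bins that were higher in banded than in sham hearts, by 0.29 and 0.26. These short dense bins also carried high H3K27me3, with 1278 and 1276 RPM per Mb. Gains with training were smaller, 0.27 from 24455001 to 24585001, 0.21 from 83655001 to 83715001 and 0.21 from 181575001 to 181665001. In those 3 bins the banded value was below the sham value, by 0.13 to 0.30 log2 RPM. In all these bins the sham and control hearts differed by more than either comparison. Sham minus control was -0.88, -1.05 and -1.09 log2 RPM in the bins with losses. In the bins with gains it was 0.49, 0.65 and 1.17.

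H3K27me3 leaned the other way with training. Its median difference was 0.024 log2 RPM on chromosome 2 and 0.0080 elsewhere, and 63.0% of the bins of chromosome 2 were above 0, against 53.9% of all other bins. Chromosome 16 alone was higher, with 0.029 and 63.5%. The SD over bins was 0.10 on chromosome 2 and 0.11 elsewhere. Weighted by length, the mean was -0.0028 on chromosome 2, still the highest of the 20 chromosomes, whose other means ran from -0.085 to -0.0058. The bins under 100 kb had a median of 0.089 on chromosome 2 and 0.057 elsewhere, and the bins of 1 Mb or more had -0.0032 and -0.017. The lean to higher values was largest in short bins.

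On chromosome 2, 1 H3K27me3 bin of 873 passed 0.5 log2 units, beside 0.124% of all bins in either direction and 0.0412% in the lower direction. It ran from 228795000 to 228965002 and had 41.8 RPM in trained and 59.9 RPM in control hearts, a difference of -0.52. Banded and sham hearts were between these values, with 51.6 and 49.3 RPM, and H3K9me2 over the bin differed by 0.021 with training. At 0.25, 15 of 873 bins passed, or 1.72%, beside 2.69% of all bins. Of these, 9 were higher and 6 lower in trained hearts, beside 0.948% and 1.74% of all bins. The other large losses were -0.36 from 24355000 to 24475002 and -0.31 from 247055000 to 247095002. Over the first of them H3K9me2 was higher by 0.11 in trained hearts, and over the second by 0.053. The second rested on only 7.14 RPM in trained and 8.84 RPM in control hearts. The largest gains were 0.41 from 234405000 to 234435002, 0.35 from 80215000 to 80425002 and 0.31 from 74295000 to 74315002. Only the gain at 80215000 rested on more than 20 RPM, with 91.3 RPM in trained and 71.4 RPM in control hearts.

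The chromosomes at the other end of the scale were 10 and 12, which are rich in CpG-rich promoters. With banding, the H3K9me2 median was 0.042 on chromosome 2, against -0.037 on chromosome 10 and -0.061 on chromosome 12. With training it was -0.0067 on chromosome 2, against 0.016 and 0.036. For H3K27me3, chromosome 2 had 0.022 with banding and 0.024 with training, against -0.034 and -0.020 on chromosome 10 and -0.042 and -0.049 on chromosome 12. Over the 20 chromosomes, the banding medians went down with CpG-rich promoters per Mb, with Pearson -0.93 for H3K27me3 and -0.82 for H3K9me2. Training gave -0.80 for H3K27me3 and 0.71 for H3K9me2. Without chromosome 2 the 4 values were -0.93, -0.81, -0.79 and 0.69, so chromosome 2 did not set them. Chromosomes 10 and 12 were not left out. They had 8.10 and 7.50 such promoters per Mb, and chromosome 20 came next with 5.52. How far these 2 chromosomes set the correlations was not tested. Spearman correlations were weaker (-0.85, -0.60, -0.69 and 0.47). The 20 chromosomes share libraries and a fixed total, so their medians are not independent. The promoter densities are those of GRCr8, another assembly than that of the bins.

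**Figure D4:**
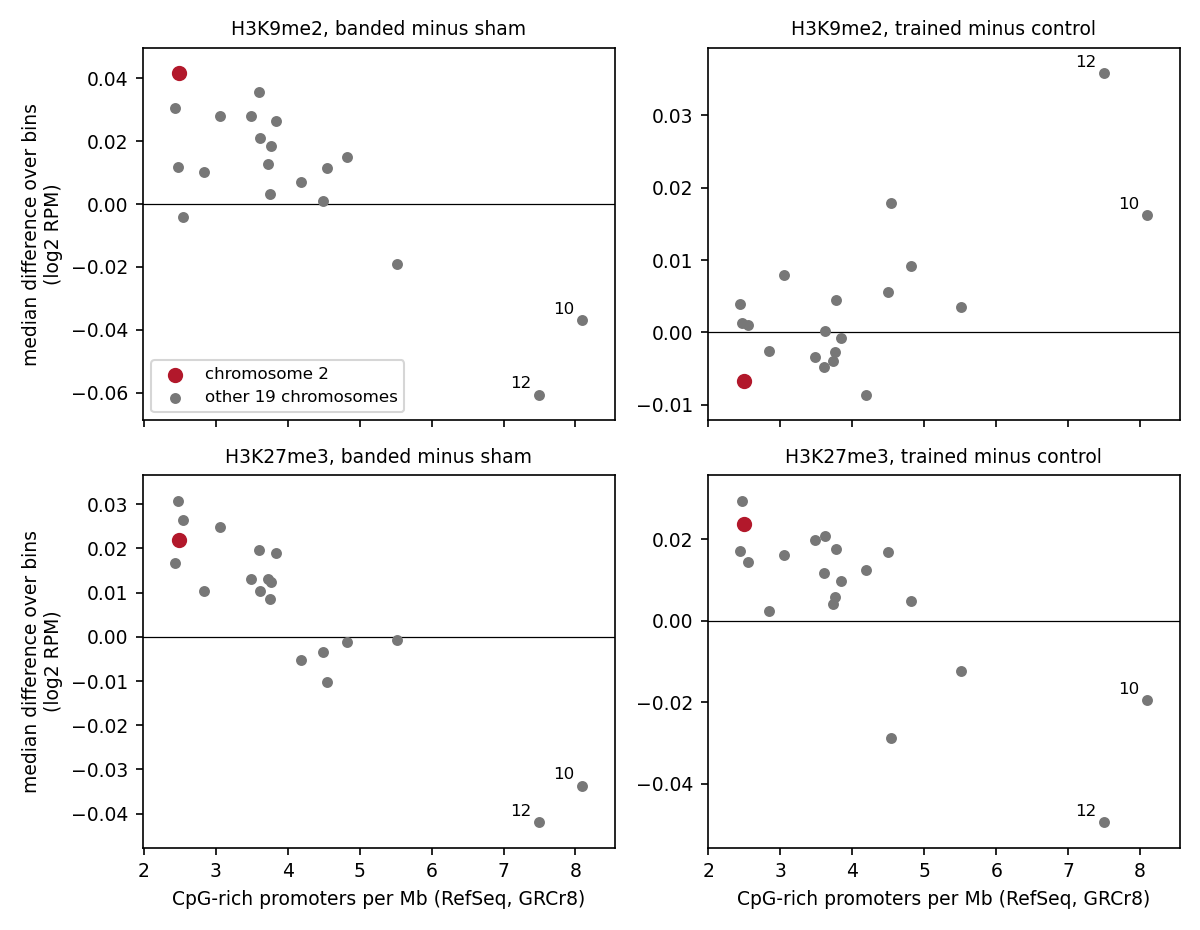
Median difference over the bins of each chromosome (log2 RPM) against CpG-rich promoters per Mb, for chromosome 2 (red) and the other 19 chromosomes (grey, with 10 and 12 named), for each mark and comparison. Chromosome 2 is at the promoter-poor end, with 0.042 and -0.0067 for H3K9me2 and 0.022 and 0.024 for H3K27me3 for banding and training.

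The differences also depended on how dense a bin was. All bins of a mark were cut into 5 classes of equal number by density, and chromosome 2 had 12.0% of its H3K9me2 bins and 12.6% of its H3K27me3 bins in the densest class, against 20.7% and 20.7% of all other bins. For H3K9me2 with banding, the medians from the sparsest to the densest class were -0.016, -0.0040, 0.042, 0.051 and 0.14 on chromosome 2. On all other chromosomes they were -0.10, -0.067, 0.0044, 0.039 and 0.098. Chromosome 2 was higher in all 5 classes. The gap was widest in the sparsest class, at 0.087. Averaged over the classes by the number of chromosome 2 bins, it was 0.049, against 0.031 with all densities together.

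With training, H3K9me2 ran the opposite way over the classes. Its medians were -0.0079, 0.0084, 0, -0.014 and -0.091 on chromosome 2, against 0.042, 0.037, 0.0083, -0.0082 and -0.050 elsewhere, and chromosome 2 was lower in all 5 classes. For H3K27me3 with banding, chromosome 2 was higher in 4 of 5 classes and lower in the fourth (0.025 against 0.037). For H3K27me3 with training it was higher in all 5, from -0.046 against -0.086 in the sparsest class to 0.056 against 0.024 in the densest. The position of chromosome 2 relative to the other chromosomes was thus also seen within these classes, with that 1 exception. The classes are broad, and the sparsest of H3K9me2 ran from 78.1 to 318 RPM per Mb. Whether density accounts for the differences was not tested. The density used for the classes is the mean of the same 4 columns, so the classes are not independent of the differences.

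**Figure D5:**
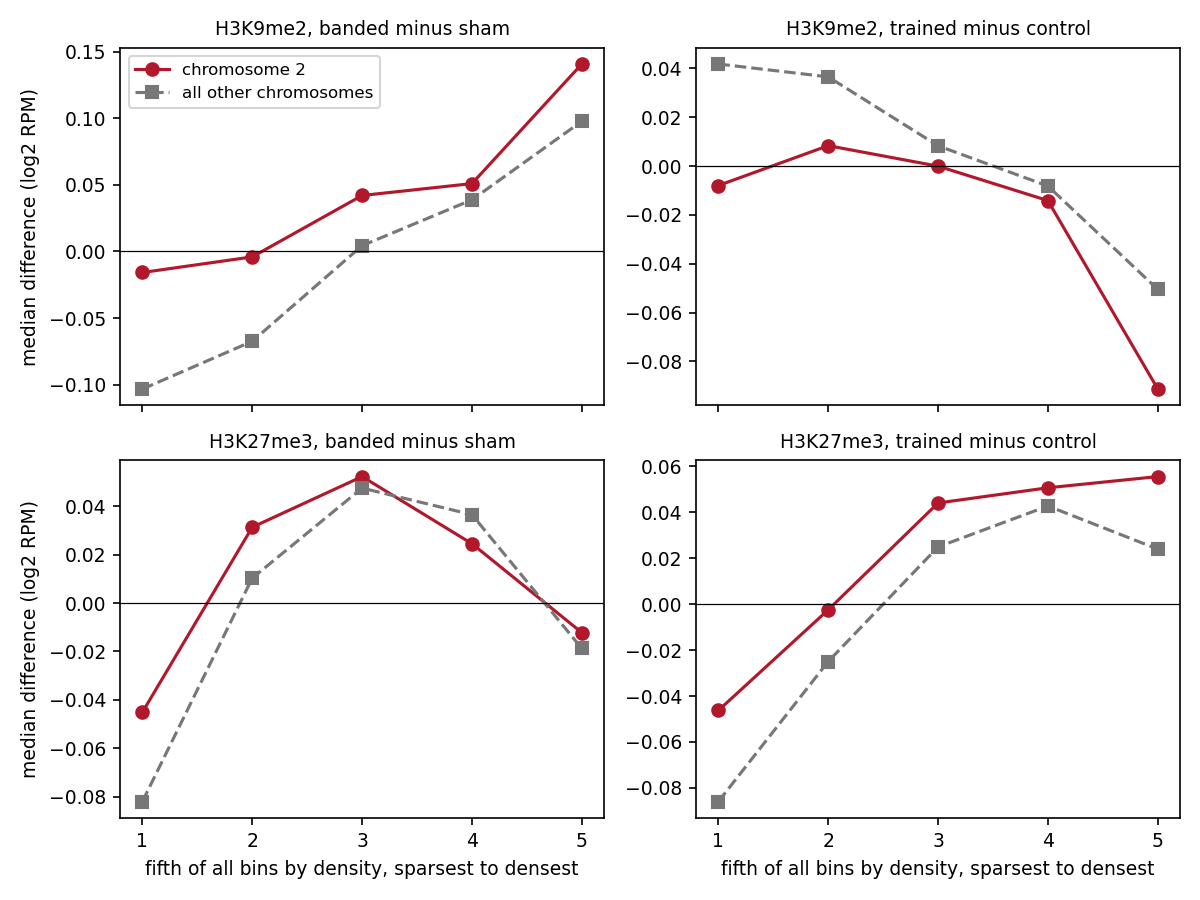
Median difference in log2 RPM over bins in 5 classes by density, from the sparsest to the densest, for chromosome 2 (red) and all other chromosomes (grey). For H3K9me2 chromosome 2 lies above the others in all 5 classes with banding and below them with training, and for H3K27me3 it lies above them in 4 of 5 classes with banding and in all 5 with training.

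Bin by bin, banding and training went opposite ways for H3K9me2 and the same way for H3K27me3, on chromosome 2 as elsewhere. The 2 comparisons share no samples. For H3K9me2 the Pearson correlation between them was -0.44 over the 482 bins of chromosome 2 and -0.49 over all other bins, and 32.4% against 29.6% of bins had the same sign. For H3K27me3 it was 0.47 on chromosome 2 and 0.52 elsewhere, with 69.1% against 67.5% of bins of the same sign. Chromosome 2 therefore showed the pattern of the other chromosomes. The differences themselves went with bin density, which is the mean of the same 4 columns. On chromosome 2 their Pearson correlations with log2 density were 0.31 for banding and -0.23 for training for H3K9me2. For H3K27me3 they were 0.099 and 0.40. Between the marks, in windows of 1 Mb, the banding differences had a Pearson correlation of 0.38 on chromosome 2. This was the lowest of the 20 chromosomes, whose values reached 0.83, and chromosome 15 was next with 0.42. On chromosome 2, 26.2 Mb lay in 2 H3K9me2 bins with the same value in all groups. Windows inside them had an H3K9me2 difference of exactly 0, and other long bins repeat 1 value over many windows. Whether this lowered the correlation was not tested. The training differences had -0.49, within a range from -0.73 to 0.38 over the 20 chromosomes. Bins share libraries, and the 4 columns of a mark share 1 distribution.

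The sham and control hearts differed far more than either comparison within an experiment. Weight, surgery and experiment cannot be told apart here. For H3K9me2, 108 of 482 bins of chromosome 2 differed by more than 0.5 log2 units between sham and control hearts, or 22.4%, beside 26.6% of all bins. Of these, 61 were higher and 47 lower in sham hearts, beside 14.2% and 12.4% of all bins. For H3K27me3, 16 of 873 did, or 1.83%, beside 3.14% of all bins, with 10 higher and 6 lower, beside 1.81% and 1.33% of all bins. The median over chromosome 2 was -0.017 log2 RPM for H3K9me2 and 0.029 for H3K27me3, against -0.024 and -0.014 on all other chromosomes. These gaps to the other chromosomes did not keep their sign: 0.0074 for H3K9me2 became -0.013 in bins of 100 kb or more, -0.0093 as a mean weighted by length and -0.071 within classes of density, and 0.043 for H3K27me3 became -0.013 within those classes. Weighted by length, the H3K9me2 mean on chromosome 2 was 0.020. The SD over bins was 0.40 for H3K9me2 and 0.23 for H3K27me3 on chromosome 2, and 0.45 and 0.25 elsewhere. Chromosome 2 had the smallest share of the 20 chromosomes of H3K9me2 bins past 0.25 log2 units, 48.5%, beside 57.8% of all bins.

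The difference between sham and control hearts went with density. Its Pearson correlation with log2 density over the bins of chromosome 2 was -0.45 for H3K9me2 and -0.69 for H3K27me3, against -0.54 and -0.69 elsewhere. The H3K9me2 medians went from 0.20 in the sparsest class to -0.43 in the densest on chromosome 2. Dense bins were lower and sparse bins higher in sham hearts. The largest H3K9me2 differences, chosen after their values were seen, were -1.22 log2 RPM in the bin from 186505001 to 186545001 and 1.17 in the bin from 181575001 to 181665001. The first had 13.9 RPM in sham and 32.5 RPM in control hearts, beside 17.5 RPM in banded and 29.3 RPM in trained hearts. The second had 34.1 RPM in sham and 15.1 RPM in control hearts, beside 27.7 RPM in banded and 17.4 RPM in trained hearts. The largest H3K27me3 difference, also chosen after its values were seen, was -1.37 in the bin from 140675000 to 140755002. It had 337 RPM per Mb in banded and 319 in sham hearts, against 841 in trained and 822 in control hearts. The 2 groups of each experiment were close to each other in this bin.

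Some of the longest H3K9me2 bins had the same value in every group. The log2 RPM of a bin went with the log2 of its length (Pearson 0.98 for H3K9me2 and 0.84 for H3K27me3 over all bins). The 14.7 Mb bin had 12.35 log2 RPM in banded, sham, trained and control hearts alike, and rank 2 in each column. On chromosome 2, 2 H3K9me2 bins with 26.2 Mb together had exactly the same value in all 4 columns, against 8 bins with 66.7 Mb elsewhere, and all were of 1 Mb or more. The SD of the H3K9me2 banding difference on chromosome 2 was 0.17 in bins under 100 kb, 0.13 in bins of 100 kb to under 1 Mb and 0.086 in longer bins. The longest H3K27me3 bin, from 132945000 to 137525002, had ranks 6, 7, 18 and 19 in the banded, sham, trained and control columns, with 10.16, 10.09, 9.75 and 9.73 log2 RPM. Long H3K27me3 bins were thus not fixed in this way, and those of 1 Mb or more on chromosome 2 had a median sham minus control difference of 0.21 log2 RPM, against 0.029 over all its H3K27me3 bins.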

How the data were processed

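Deposited values of H3K9me2 and H3K27me3 chromatin immunoprecipitation were used, 1 column per group. The authors deposited log2 RPM per bin of circular binary segmentation, per the file headers and names. The sources used here do not give how samples were combined, whether input was subtracted, how many reads stand behind a value or which build was used, so no interval or count floor could be set. Bowtie, SAMtools, edgeR and R 2.15.1 appear in the submitters' processing notes with no role stated. The bins and the sham and banded H3K9me2 columns were the same in both files of the mark (largest difference 0).

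Density is 2 to the value, summed and divided by summed length. Differences are of log2 RPM without a pseudocount; over 0.5 counts as called. Windows of 1 Mb were weighted by overlap. No test was run, since there is 1 value per group. Regions named are, per mark, the 3 densest, 3 sparsest and longest bins, the 3 largest gains and losses per comparison, and the longest runs of windows. The chromosome, lists and thresholds were chosen with earlier results of these data known. Gene counts come from RefSeq (GRCr8), another assembly than that of the bins. The RNA tables give gene IDs without positions and were not used here. Python 3.11.15, numpy 2.4.6, pandas 2.3.3, scipy 1.17.1 and matplotlib 3.10.9 were used, and the density, window and difference functions were checked on simulated bins. Alternatives changed the pseudocount, threshold, bin filters, weighting, centring and window size.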

Additional observations from a re-analysis of the deposited data

How the results depend on the processing

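The density ratios of both marks moved by less than the SD of the other chromosomes' own ratios under all 32 of their alternatives. For H3K9me2 that SD was 0.040 to 0.047, wide enough to take in a ratio of 1 in each group. This check therefore says little for that mark, though its ratios stayed below 1, from 0.943 to 0.989. The largest H3K27me3 move was in control hearts, from 0.810 to 0.882 by the median of bin densities. Under both other window sizes, the correlation of both marks along chromosome 2 moved by less than the SD of the other chromosomes' correlations. For the gaps in median difference, 25 alternatives kept the sign and moved by less than the SD of the other chromosomes' gaps. Of the rest, 1 moved by more and 4 turned the sign. That SD was larger in size than the gap for H3K9me2 training (0.010, gap -0.0086) and H3K9me2 sham minus control (0.027, gap 0.0074). It was also larger for H3K27me3 banding (0.020, gap 0.015) and training (0.020, gap 0.016). For these gaps the check says little. The H3K9me2 banding gap (0.031, SD 0.025) fell to 0.014 as a mean weighted by length and still counted as kept. The gap of chromosome 2 to the other chromosomes in the H3K9me2 training median grew to -0.025 log2 RPM, against -0.0086, when computed within density classes, a choice made after the data were seen. The sham minus control gaps did not hold their sign: 0.0074 for H3K9me2 became -0.013 in bins of 100 kb or more, -0.0093 as a mean weighted by length and -0.071 within density classes, and 0.043 for H3K27me3 became -0.013 within density classes. The cause was not tested. By construction, the counts past 0.5 log2 units (0 and 0 for H3K9me2 and 0 and 1 for H3K27me3, for banding and training) became 39, 8, 26 and 15 at 0.25, and the 1 became 0 at 1 and with a pseudocount of 18.4 RPM. The counts of 0 could not change under a higher threshold, a pseudocount or fewer bins, so those alternatives say nothing about them. No paired analysis was possible because the files give 1 column per group, and for the same reason no replicate could be left out. The alternative without chromosome X was not run, since the bins hold none. All values are limited by the shared distribution of the columns and by unknown depth.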
